A study of Mus musculus with 8 samples.

Results

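The genes described here encode proteins of mitosis other than the kinesin motors, from the kinase that starts it to the proteins that pull the chromosomes apart and split the cell. The set was chosen by gene symbol and held 45 genes. Of these, 44 had a probe set that the array's annotation assigns to 1 gene symbol alone, out of 18193 genes with such a probe set. Ccnb1, which encodes cyclin B1, had none and has no value here. Each gene was represented by its brightest probe set. All 44 genes passed the filter on low values, a signal of 50 on at least 2 arrays, which 8886 genes passed, and all 44 reached 50 on all 8 arrays.

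The arrays measured RNA of progenitors sorted from mouse bone marrow: common myeloid progenitors (CMP), which give rise to all myeloid lineages, and granulocyte-monocyte progenitors (GMP), the later stage restricted to granulocytes and monocytes. The G0 TERTER/+ mice, which the labels call normal, carried the modified telomerase reverse transcriptase allele on 1 of their chromosomes, so the controls were not wild type. The G4/G5 TERTER/ER mice carried it on both and were late generations of such breeding. G0 is a mouse generation throughout, not the resting phase of the cell cycle. All mice were male and mainly C576BL/6, as the labels spell it, and the sources used here do not give their ages. Each group held 2 arrays, each from a pool of 4 mice, with between 5000 and 20000 sorted cells per sample, and the study matched each G4/G5 pool to the G0 pool of the same number. Pools are the replicates, and p-values rest on how far pools of a group differed.

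Mitosis begins when the kinase Cdk1, bound to cyclins A and B, is activated by Cdc25 phosphatases. Aurora and Polo kinases then build the spindle, the spindle checkpoint holds the cell until every kinetochore is attached, and the anaphase-promoting complex with Cdc20 destroys securin and the cyclins. Transcripts of these proteins accumulate in the G2 and M phases, and their level in a bulk sample therefore follows the share of cells in those phases as well as the RNA in each cell. Many of their promoters carry a CCAAT box, bound by NF-Y, and close to the transcription start a cell cycle homology region (CHR), bound by the MuvB complex that represses them in resting cells and activates them in G2.

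Promoter sequences from RefSeq (build GRCm38.p6) were available for 38 of the 45 genes, each from 250 bases before to 50 bases after the annotated start. The CHR was searched as TTTGAA or TTCGAA and the CCAAT box as CCAAT, on both strands. TTCGAA is its own reverse complement and was counted once. A CHR was found in 28 of the 38 promoters (73.7%), against 21.7% of all 27025 genes in the table and 16.4% of the 7301 tested genes outside the set. The CCAAT box was found in 29 promoters (76.3%), against 41.1% of all genes, and both motifs in 26 (68.4%), against 8.61%. Among 39 promoters of DNA replication genes, 23.1% held a CHR and 12.8% held both motifs. Of the mitosis promoters, 26 (68.4%) held the CHR between 60 bases before and 50 bases after the start, against 6.79% of all genes. The promoters of Nuf2, Nusap1, Ncaph, Plk4, Mad2l1, Pttg1 and Birc5 held neither set of letters in this window.

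Below are 4 of these promoters, from 130 bases before to 20 bases after the start on the gene's strand, chosen because the genes' levels are given on every array in the following paragraphs. Capitals mark the CHR (TTTGAA, or TTCAAA where it lies on the other strand) and the CCAAT box (CCAAT, or ATTGG on the other strand). Cdk1 lies at chr10:69352893-69353042 on the minus strand, Cdc20 at chr4:118437324-118437473 on the minus strand, Ube2c at chr2:164769799-164769948 on the plus strand and Aspm at chr1:139454643-139454792 on the plus strand.
Cdk1: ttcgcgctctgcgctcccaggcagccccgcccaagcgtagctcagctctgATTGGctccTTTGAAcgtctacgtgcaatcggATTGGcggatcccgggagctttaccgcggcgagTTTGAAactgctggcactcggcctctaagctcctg
Cdc20: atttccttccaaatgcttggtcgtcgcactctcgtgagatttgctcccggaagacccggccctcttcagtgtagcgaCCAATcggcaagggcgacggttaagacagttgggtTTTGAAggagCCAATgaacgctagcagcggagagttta
Ube2c: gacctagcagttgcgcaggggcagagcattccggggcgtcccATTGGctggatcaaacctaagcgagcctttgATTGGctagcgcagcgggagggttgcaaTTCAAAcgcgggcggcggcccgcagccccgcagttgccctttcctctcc
Aspm: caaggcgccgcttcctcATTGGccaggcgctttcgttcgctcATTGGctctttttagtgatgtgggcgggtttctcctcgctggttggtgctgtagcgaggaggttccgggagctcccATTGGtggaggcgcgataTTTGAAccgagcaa
Counted from the start, the CHR began at -71 and -15 in Cdk1, at -18 in Cdc20, at -29 in Ube2c and at 7 in Aspm. All 4 genes held both motifs, and as the values below show they did not move alike: Cdk1, Cdc20 and Ube2c were higher in GMP than in CMP of G0 mice and Aspm was lower.

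The values are MAS5 signals, linear intensities that the authors scaled to a target of 100 on each array, and differences are given on the scale of log2(signal + 10). Signals of different genes come from different probes and are not compared with each other. Within the set, the lowest signal was 53.7, for Cdc25b on an array of G0 GMP, and the highest 2553, for Pttg1 on an array of G4/G5 GMP. Kit and Cd34, which mark both progenitors, read at least 723.3 and 880.2 on every array. Fcgr3, which the sort uses to part GMP from CMP, read between 731.9 and 1457 in GMP, but also 617.5 in G4/G5 CMP pool 1, against at most 83.9 on the other CMP arrays. That pool lay at -3.6 on the leading principal component, which held 54.5% of the variance, against -37.8 to -30.7 for the rest of the CMP arrays. The summed signal of 14 measured markers of maturing neutrophils was 63743 in that pool, between 360 and 438.9 on the other CMP arrays, and in GMP 1591 and 3557 for the G0 pools against 33454 and 36658 for the G4/G5 pools. Of these 14 markers, 14 read at least 50 in that pool, between 1 and 3 on the other CMP arrays, and in GMP 3 and 8 for the G0 pools against 13 and 14 for the G4/G5 pools. The sums thus differed between the genotypes in GMP and between the pools of G4/G5 CMP, and their part in the differences of mitosis genes was not tested.

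**Figure D1:**
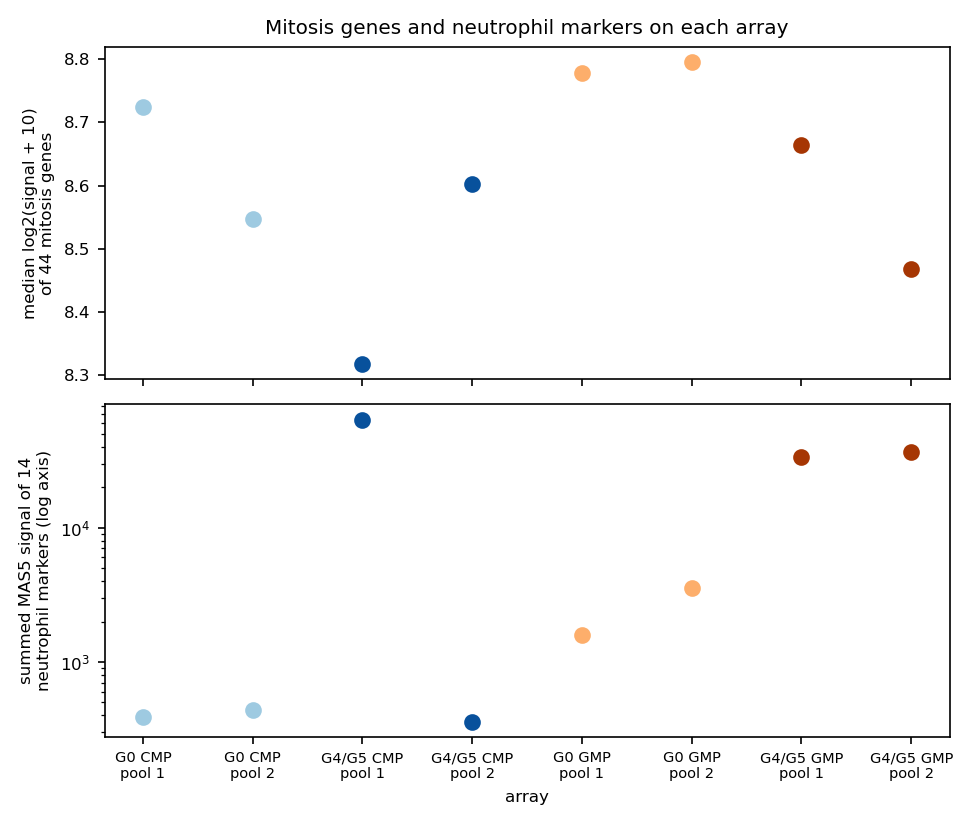
The upper panel plots the median log2(signal + 10) of the 44 mitosis genes on each of the 8 arrays, and the lower panel the summed MAS5 signal of 14 neutrophil markers on a log axis. The median was highest on the 2 arrays of G0 GMP (8.78 and 8.80) and lowest in G4/G5 CMP pool 1 (8.32), the array with the highest neutrophil sum (63743).

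The median level of the 44 genes in CMP was 8.72 and 8.55 for the G0 pools and 8.32 and 8.60 for the G4/G5 pools. In GMP it was 8.78 and 8.80 for the G0 pools and 8.66 and 8.47 for the G4/G5 pools. Both G0 GMP pools stood above the other 6 arrays. These pools enter the comparison of cell types in G0 mice, that of genotypes in GMP, and their interaction. Those results are therefore not independent of each other. The pools of a group differed by a median absolute value over the 44 genes of 0.24 and 0.21 in CMP of G0 and G4/G5 mice, and of 0.11 and 0.21 in GMP. In G4/G5 GMP, pool 1 read above pool 2 for 39 of the 44.

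**Figure D2:**
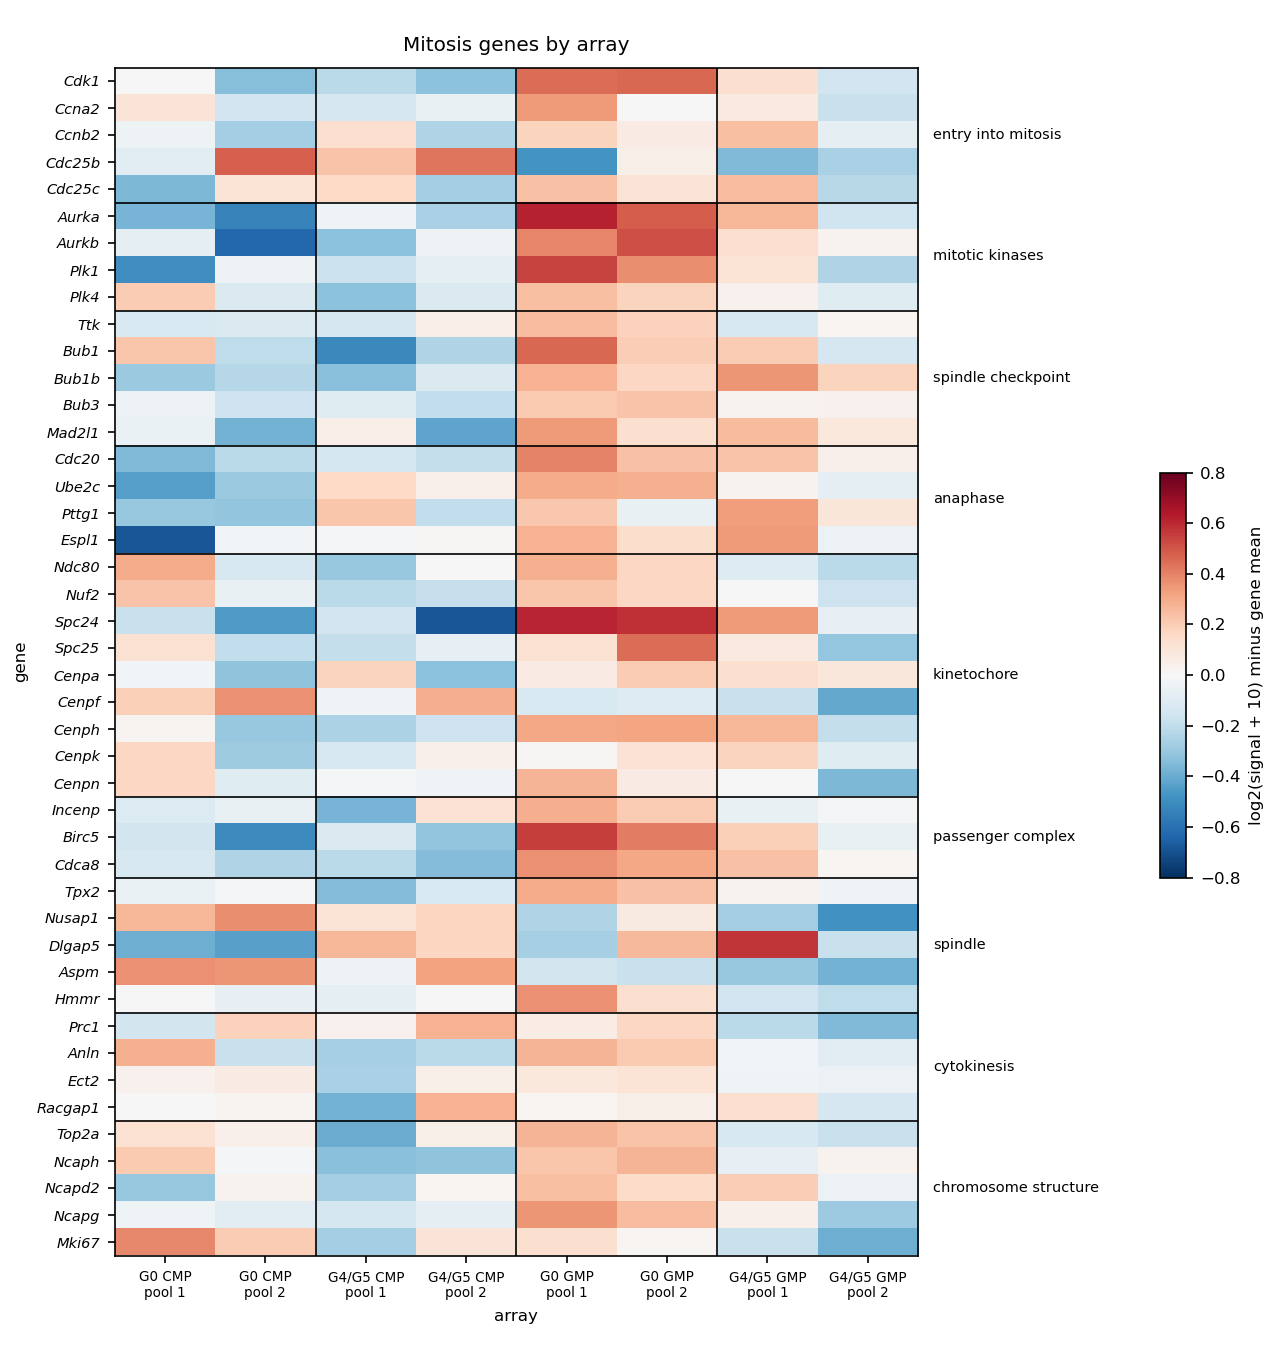
Each row is a mitosis gene, grouped by role, and each column an array; the colour gives log2(signal + 10) minus the gene's mean over the 8 arrays. Most rows are red in both G0 GMP pools, while Aspm, Nusap1, Cenpf and Mki67 have their highest values in CMP.

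In normal mice, the mitosis genes were mostly higher in GMP than in CMP. Of the 44 genes, 39 had a higher mean in GMP, against 48.7% of all genes tested, and the median difference was 0.31, against -0.02 over all genes. The limma test called 10 genes higher (22.7%) and 1 lower (2.27%) at an adjusted p under 0.05, beside 10.6% and 10.2% of all 8886 genes, or 20.8% in both directions. Both GMP pools lay above both CMP pools for 28 genes and below them for 4, where 32.2% and 33.1% of all genes did so. The called genes were Aurka, Ube2c, Birc5, Cdc20, Spc24, Cdca8, Aurkb, Cdk1, Plk1 and Bub1b, which were higher, and Aspm, which was lower. In bulk RNA, a different share of cells in mitosis and a different amount of RNA per cell cannot be told apart. The calls rested on having both G0 GMP pools: without either of them the set lost its calls, and all genes lost most of theirs. The median difference of the 44 was 0.26 without pool 1 and 0.35 without pool 2 of that group. Without G0 CMP pool 2 it was 0.26, with 35 of the 44 genes higher in GMP. Erythroid and stem cell markers also differed between the cell types of G0 mice: 5 of 7 tested erythroid markers and 9 of 9 stem and multipotent markers had a lower mean in GMP, with medians of -1.03 and -1.84, and their part was not tested.

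Cdk1, the catalytic subunit of the main mitotic kinase (probe set 1448314_at), read 709.1 and 556.8 in G0 CMP and 966.7 and 976.5 in G0 GMP. The groups did not overlap, and the GMP pools were closer to each other than the CMP pools. The difference was 0.62 ± 0.16 (SE, 2 pools per group; limma, adjusted p = 0.0283). Of the other genes of mitotic entry, the cyclin genes Ccna2 and Ccnb2 and the phosphatase genes Cdc25b and Cdc25c, 0 of 4 were called. Their differences were 0.20, 0.28, -0.41 and 0.29.

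All 4 mitotic kinases had a higher mean in GMP, with a median difference of 0.76, and 3 were called. Aurka, which encodes the spindle pole kinase Aurora A (1424511_at), read 169.4 and 150.2 in G0 CMP and 346.1 and 314.9 in G0 GMP. Both GMP pools were above both CMP pools, and the difference of 1.00 ± 0.18 was the widest of the 44 (limma, adjusted p = 0.00983). Aurkb, which encodes Aurora B, the kinase of the chromosomal passenger complex (1451246_s_at), read 291.5 and 195.5 in CMP and 405.1 and 443.8 in GMP. Plk1, the Polo-like kinase needed throughout mitosis (1448191_at), read 142.7 and 199.3 in CMP and 303.8 and 268.6 in GMP. For both kinases the CMP pools differed from each other by more than the GMP pools did, and the groups did not overlap. The differences were 0.80 ± 0.20 for Aurkb (limma, adjusted p = 0.0264) and 0.73 ± 0.20 for Plk1 (limma, adjusted p = 0.0350). The other probe set of Aurkb, 1424128_x_at, gave 0.60 ± 0.18 (limma over probe sets, adjusted p = 0.0509). Plk4, which starts centriole duplication, had a difference of 0.17 and was not called.

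The partners of Aurora B in the passenger complex went the same way. Birc5, which encodes survivin (1424278_a_at), read 652.7 and 503.9 in CMP and 1066 and 961.2 in GMP. Cdca8, which encodes borealin (1436847_s_at), read 946.3 and 873.1 in CMP and 1339 and 1287 in GMP. Both GMP pools were above both CMP pools for each gene. Birc5 was higher by 0.81 ± 0.17 (limma, adjusted p = 0.0145) and Cdca8 by 0.53 ± 0.13 (limma, adjusted p = 0.0245). The other probe sets of Cdca8 gave 0.53 and 0.79. The scaffold of the complex, Incenp, had a difference of 0.33 and was not called.

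Of the 4 anaphase genes, 2 were called. Cdc20, the mitotic activator of the anaphase-promoting complex (1439377_x_at), read 1232 and 1356 in CMP and 2080 and 1862 in GMP. Ube2c, its ubiquitin-conjugating enzyme (1452954_at), read 713.7 and 790.4 in CMP and 1198 and 1188 in GMP. The groups did not overlap in either case. Ube2c was higher by 0.66 ± 0.12 (limma, adjusted p = 0.00995) and Cdc20 by 0.60 ± 0.12 (limma, adjusted p = 0.0145). The probe sets of Cdc20 disagreed: 1416664_at gave 0.80 ± 0.20 and 1439394_x_at gave -0.13 ± 0.26, and with their mean Cdc20 was no longer called. Pttg1, which encodes securin, and Espl1, which encodes separase, the protease that securin inhibits, had differences of 0.39 and 0.56 and were not called.

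At the kinetochore, 1 of 9 genes was called. Spc24, a subunit of the Ndc80 complex that binds microtubules (1431087_at), read 245.5 and 201.1 in CMP and 431.1 and 422.2 in GMP, without overlap. It was higher by 0.91 ± 0.22 (limma, adjusted p = 0.0224). The other subunits of that complex had differences of 0.14 for Ndc80, 0.11 for Nuf2 and 0.32 for Spc25. Ndc80 read 174 and 127.2 in CMP and 172.9 and 158 in GMP, so its groups overlapped. Cenpa, the histone variant that marks the centromere, read 642.1 and 520.6 in CMP and 682.4 and 753.1 in GMP and had a difference of 0.31 ± 0.18 (limma, adjusted p = 0.265).

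All 5 genes of the spindle checkpoint had a higher mean in GMP, with differences between 0.32 and 0.49, and 1 was called. Bub1b, a subunit of the mitotic checkpoint complex (1447363_s_at), read 319.4 and 335.2 in CMP and 481.6 and 443.9 in GMP. The groups did not overlap, and the difference was 0.49 ± 0.14 (limma, adjusted p = 0.0418). Its other probe set gave 0.49 ± 0.16 (limma over probe sets, adjusted p = 0.0600). The call of Bub1b was lost without a filter on signal, without an intensity trend, without probe sets marked _x_at or _s_at, with only the 4 arrays compared, and without any 1 array of G0 CMP, G0 GMP or G4/G5 GMP. Bub3 and Mad2l1, further parts of the checkpoint complex, had differences of 0.33 and 0.45. Both missed the threshold, while with the pool number shared over all arrays as a block Mad2l1 was called (limma, adjusted p = 0.0347).

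Spindle and chromosome genes were mixed. Aspm, which encodes a spindle pole protein (1422814_at), read 404.7 and 401.3 in CMP and 280.8 and 274.4 in GMP. It ran opposite to the called genes above, with both GMP pools below both CMP pools, and was lower by a log2 value of -0.52 ± 0.15 (limma, adjusted p = 0.0437). The other probe set of Aspm past the filter gave -0.05 ± 0.25, and the call was lost with the mean of the probe sets, with median centring, without an intensity trend, without a filter on signal, and without any 1 array of G0 CMP, G0 GMP or G4/G5 GMP. Nusap1, a microtubule-binding spindle protein, read 667.1 and 719.6 in CMP and 466.6 and 582.6 in GMP, also without overlap, and did not pass. Tpx2, which activates Aurora A on the spindle, read 251.8 and 260.4 in CMP and 324.5 and 309.8 in GMP, with a difference of 0.30. Its groups did not overlap and it was not called (limma, adjusted p = 0.158).

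Mki67, the gene of the proliferation marker Ki-67, read 2150 and 1894 in CMP and 1797 and 1662 in GMP. Both GMP pools were below both CMP pools, the reverse of Cdk1, with a difference of -0.22 ± 0.16 (limma, adjusted p = 0.334). Top2a, the topoisomerase that untangles sister chromatids, read 1905 and 1797 in CMP and 2112 and 2048 in GMP. Its groups did not overlap and the difference was 0.17 ± 0.15 (limma, adjusted p = 0.454), while its other probe set past the filter, 1442454_at, gave -0.25. The 3 measured condensin I genes, Ncaph, Ncapd2 and Ncapg, had differences of 0.15, 0.33 and 0.36, and the 4 cytokinesis genes Prc1, Anln, Ect2 and Racgap1 lay between 0.02 and 0.19. Of these 9 genes of chromosome structure and cytokinesis, 0 were called. Other probe sets of Bub3 (-0.05 and -0.10), Incenp (-0.19), Ncapd2 (-0.05) and Prc1 (-0.09) ran opposite to the values given above.

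**Figure D3:**
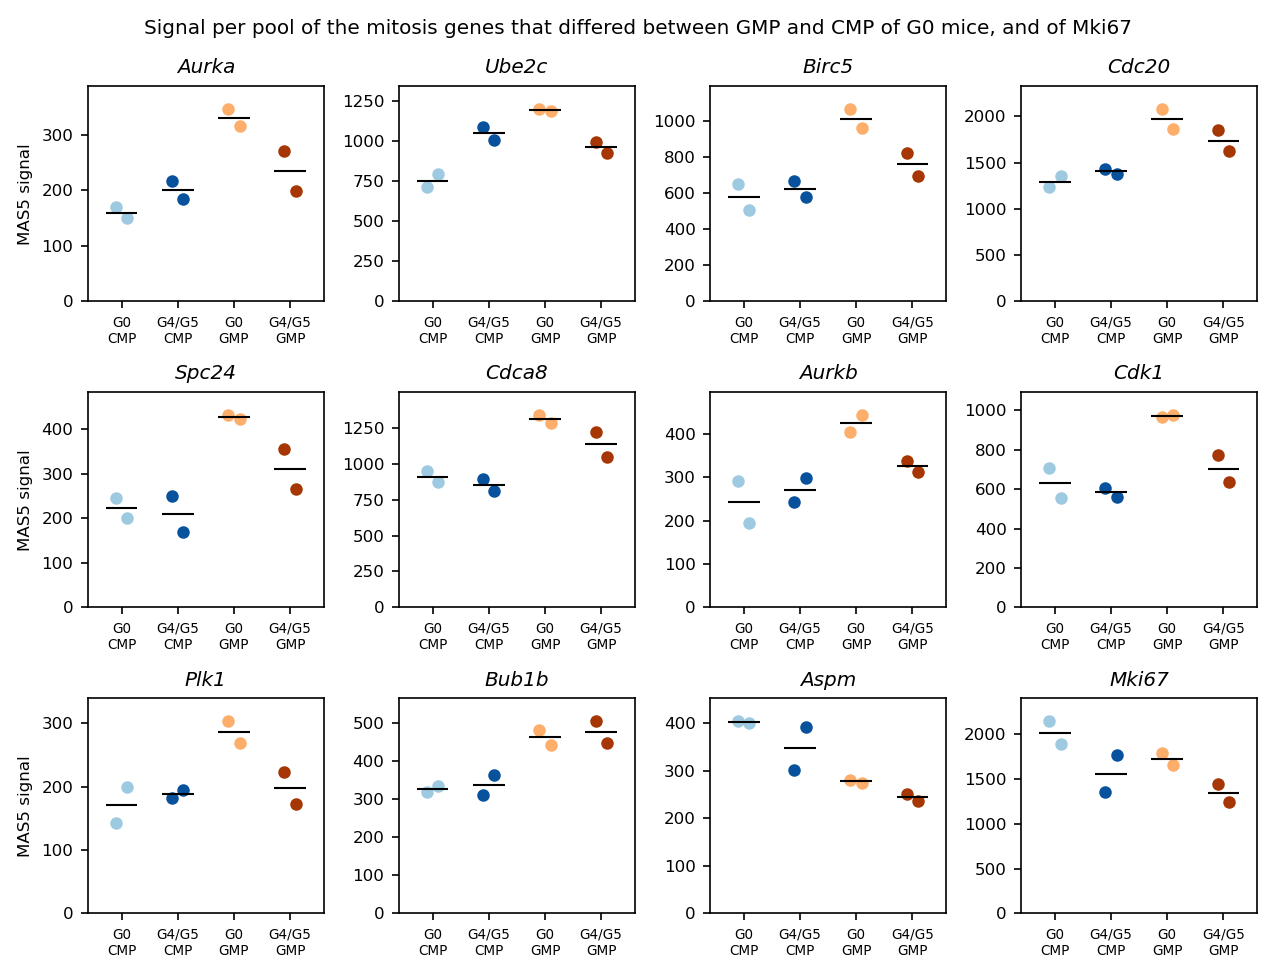
Each panel gives the MAS5 signal of a gene on the 8 arrays, with a point per pool and a bar at the mean of the 2 pools, for the 11 genes called between GMP and CMP of G0 mice and for Mki67. In 10 panels both G0 GMP points lie above both G0 CMP points, while Aspm and Mki67 run the other way.

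In G4/G5 mice the same comparison gave a lower median. Of the 44 genes, 31 had a higher mean in GMP, against 46.3% of all genes, and the median difference was 0.11, against -0.04 over all genes. The limma test called 0 of the 44, beside 10.5% of all genes called (4.18% higher and 6.29% lower). An unadjusted p under 0.05 was found for 10 of the 44 (22.7%), a smaller share than the 29.4% of all genes. Both GMP pools lay above both CMP pools for 15 genes and below them for 7, against 27.7% and 33% of all genes. The 7 were Aspm, Cdc25b, Cenpf, Hmmr, Nusap1, Prc1 and Ube2c. Without G4/G5 CMP pool 1, the array with the highest neutrophil signal, the difference was 0.82 for Spc24 and -0.66 for Aspm. The median of the 44 was then 0.07, against -0.08 over all genes. The median rested on the G4/G5 GMP pools: without pool 1 it was 0.01, with 22 genes higher, and without pool 2 it was 0.22, with 35 higher.

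Bub1b had about the same distance between the cell types as in G0 mice. It read 311.2 and 362.9 in G4/G5 CMP and 505.8 and 448 in G4/G5 GMP, a difference of 0.49 ± 0.14 that equals the value in G0 to 2 decimals but missed the threshold (limma, adjusted p = 0.0607; 0.0472 with median centring). Cdca8 read 891.3 and 812.8 in CMP and 1222 and 1048 in GMP, a difference of 0.41 ± 0.13 (limma, adjusted p = 0.0775; 0.0494 with the pool number shared over all arrays as a block). The lower genes were again Aspm, with 302.6 and 393 in CMP and 251.3 and 237.2 in GMP, and Nusap1, with 595.9 and 625 in CMP and 454.5 and 392.9 in GMP. Neither overlapped, and the differences were -0.48 ± 0.15 and -0.52 ± 0.15 (limma, adjusted p = 0.0793 and 0.0614). Ube2c was the called gene of G0 mice whose order turned: it read 1089 and 1003 in G4/G5 CMP and 994.4 and 925 in G4/G5 GMP, a difference of -0.12.

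**Figure D4:**
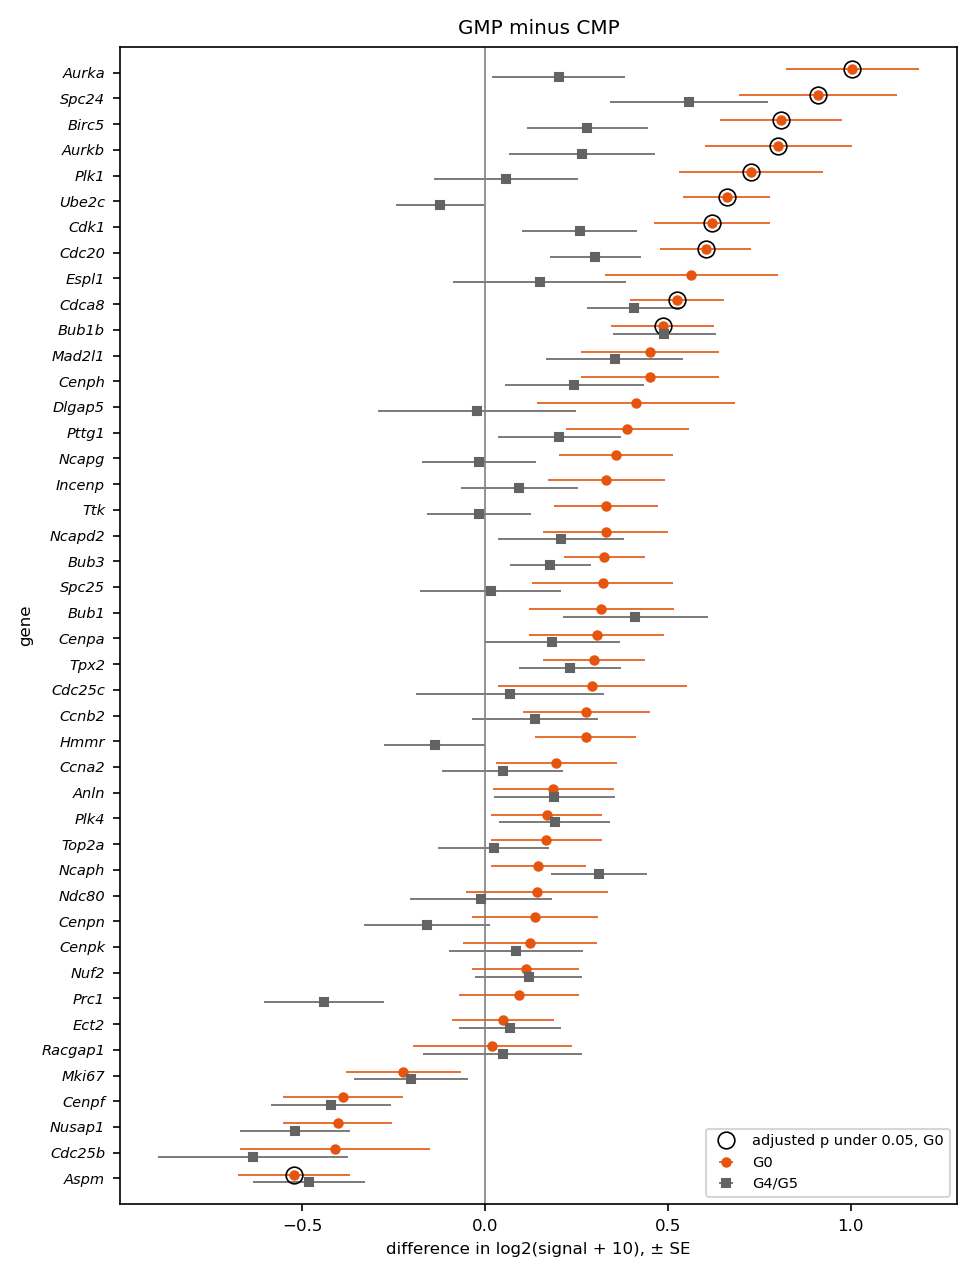
Points give the difference GMP minus CMP in log2(signal + 10), with its SE, for the 44 mitosis genes in G0 and in G4/G5 mice, and rings mark an adjusted p under 0.05 in G0. For Aurka the difference was 1.00 in G0 and 0.20 in G4/G5, and for Bub1b 0.49 in both.

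Between genotypes in GMP, 41 of the 44 genes had a lower mean in G4/G5 than in G0 mice, against 49.1% of all genes, but no single gene passed the test. The median difference was -0.27, against 0.01 over all genes. The G0 GMP pools used here are also those of the cell type comparison in G0 mice, so these results are not independent. The limma test called 0 of the 44, beside a background of 0% over all genes, and 10 of the 44 (22.7%) had an unadjusted p under 0.05, against 7.87% of all genes. That count was 0 without G4/G5 GMP pool 2 and 1 without either G0 GMP pool. With the 4 GMP arrays fitted alone the count was 22 of the 44, and 2067 of all 8886 genes had an unadjusted p under 0.05. Both G4/G5 pools lay below both G0 pools for 30 genes (68.2%), against 26.5% of all genes, and above them for 0, against 28.8%. Set against its matched G0 pool, G4/G5 pool 1 was lower for 34 genes (median -0.21) and pool 2 for 42 (median -0.31), and 34 genes were lower in both pairs, against 34.3% of all genes, while 2 were higher in both, against 36.6%. The neutrophil sum given above was higher in both G4/G5 GMP pools (33454 and 36658) than in both G0 GMP pools (1591 and 3557). Erythroid markers ran the other way: 6 of the 7 tested had a lower mean in G4/G5 GMP, with a median of -0.65, and the sum of the erythroid markers was 2064 and 2388 for the G0 pools against 1792 and 1937 for the G4/G5 pools. Gata1, the erythroid transcription factor, read 66.9 and 44.1 against 32.8 and 33.4, while the globin gene Hba-a1 read at most 2.74 on any array. The part of either list in the differences of mitosis genes was not tested.

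The 4 mitotic kinases had the lowest median of any role, -0.43. Aurka read 346.1 and 314.9 in G0 GMP against 270 and 198 in G4/G5 GMP, a difference of -0.50 ± 0.18 (limma, adjusted p = 0.595). Plk1 read 222.9 and 172.4 in G4/G5 GMP, below both G0 pools, a difference of -0.52 ± 0.20 (limma, adjusted p = 0.603). Aurkb read 338.3 and 313 in G4/G5 GMP, also below both G0 pools, with a difference of -0.37 (limma, adjusted p = 0.647). In each of these kinases the G4/G5 pools lay below the G0 pools without overlap, and pool 2 was the lower of the G4/G5 pools.

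Cdk1 read 773.2 and 634.7 in G4/G5 GMP, against 966.7 and 976.5 in G0 GMP, a difference of -0.47 ± 0.16 (limma, adjusted p = 0.595). Hmmr, a spindle protein also known as the hyaluronan-mediated motility receptor, read 412.8 and 349 in G0 GMP against 285.5 and 275.8 in G4/G5 GMP, a difference of -0.42 ± 0.14 (limma, adjusted p = 0.595). Ncapg, a condensin I subunit, read 278.8 and 258.4 in G0 GMP against 222.8 and 175 in G4/G5 GMP, a difference of -0.42 ± 0.16 (limma, adjusted p = 0.595). The groups did not overlap for any of the 3, and the other probe sets of Hmmr and Ncapg were also lower, by log2 values between -0.74 and -0.42. Top2a read 2112 and 2048 in G0 GMP against 1600 and 1547 in G4/G5 GMP, again without overlap, a difference of -0.40 ± 0.15 (limma, adjusted p = 0.603). With the 4 GMP arrays fitted alone, Top2a was the 1 mitosis gene called (limma, adjusted p = 0.0328), and 360 genes were called in all.

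All 3 genes of the passenger complex, 9 of the kinetochore and 4 of cytokinesis had a lower mean in G4/G5 GMP, though 0 were called and Cenpa, Cenpk and Racgap1 lay close to 0, at -0.02, -0.02 and -0.03. Birc5 read 824.7 and 693.2 in G4/G5 GMP, below both G0 pools, a difference of -0.42. Ndc80 read 172.9 and 158 in G0 GMP against 129.3 and 119 in G4/G5 GMP, a difference of -0.39, and Prc1, which bundles the central spindle, read 305.4 and 328.5 in G0 GMP against 250.1 and 226.8 in G4/G5 GMP, a difference of -0.40. Neither overlapped. Cenpa read 714.8 and 696.2 in G4/G5 GMP, inside the range of the G0 pools, with a difference of -0.02. Tpx2 read 267.1 and 256.5, below both G0 pools, with a difference of -0.27.

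The 3 genes with a higher mean in G4/G5 GMP were Dlgap5, a kinetochore fibre protein, Pttg1 and Bub1b, with differences of 0.20, 0.14 and 0.04. In each the pools of both genotypes overlapped, and the other probe set of Bub1b gave -0.14. Cdc20, whose product degrades securin, read 1852 and 1627 in G4/G5 GMP against 2080 and 1862 in G0 GMP, a difference of -0.18 (limma, adjusted p = 0.706). Its other probe sets gave -0.32 and 0.20.

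**Figure D5:**
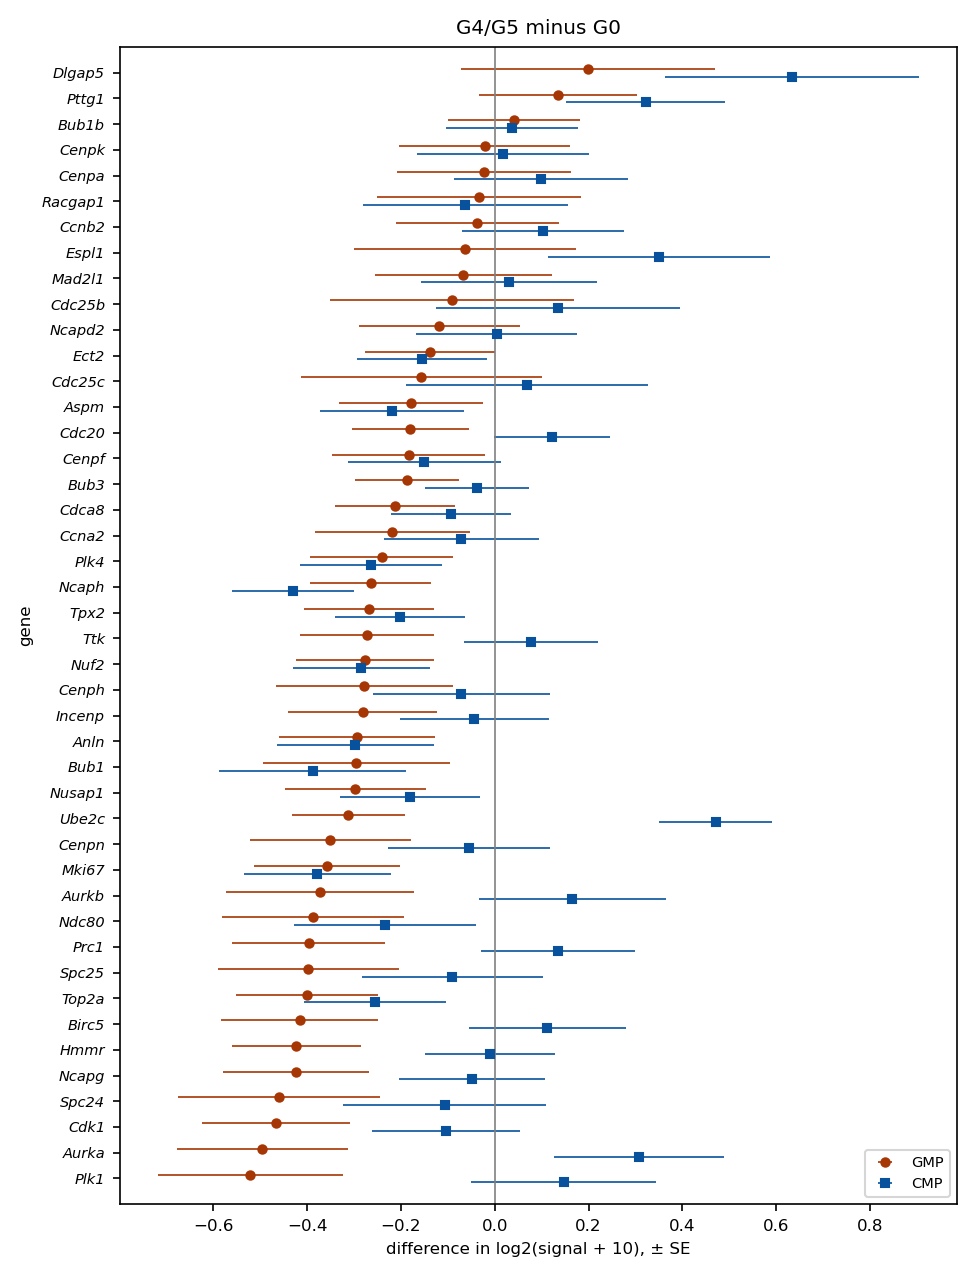
Points give the difference G4/G5 minus G0 in log2(signal + 10), with its SE, for the 44 mitosis genes in GMP and in CMP. In GMP 41 of the 44 points lie below 0, and in CMP 25.

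In CMP the mitosis genes lay on both sides of 0. Of the 44, 25 had a lower mean in G4/G5, against 44.4% of all genes, and the median difference was -0.05, against 0.04 over all genes. The limma test called 0 of the 44, with 4 (9.09%) at an unadjusted p under 0.05, beside 0.0113% of all genes called and 13.4% at an unadjusted p under 0.05. Both G4/G5 pools lay above both G0 pools for 6 genes, against 21.7% of all genes, and below them for 8, against 14.9%. The 6 were Aurka, Cdc20, Dlgap5, Espl1, Pttg1 and Ube2c, and the 8 were Anln, Aspm, Bub1, Mki67, Ncaph, Nuf2, Nusap1 and Tpx2. Other probe sets lay lower than the chosen ones for Ncapg (-1.22 against -0.05) and Aspm (-0.68 against -0.22). For Hmmr they gave -0.79, -0.56 and -0.13, against -0.01, and for Bub3 -0.62 and -0.14, against -0.04. Of 28 further probe sets, 9 had the opposite sign to the chosen one. With the mean over all probe sets of a gene, 26 of the 44 were lower and the median was -0.06. Without G4/G5 CMP pool 1, the array with the neutrophil signal, 25 genes were lower and the median was -0.03. The G0 CMP arrays moved this count further: without pool 1, 22 genes were lower (median -0.01), and without pool 2, 31 (median -0.10). Set against its matched G0 pool, pool 1 was lower for 28 genes and pool 2 for 19, and 12 were lower in both pairs, against 23.6% of all genes, while 9 were higher in both, against 35.3%.

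With the chosen probe sets, all 4 anaphase genes read higher in both G4/G5 CMP pools than in both G0 CMP pools. These were Cdc20, Ube2c, Pttg1 and Espl1, with a median difference of 0.34, while 0 of 4 passed the test. With the other probe sets of Cdc20 and Pttg1 the genotypes overlapped. Their differences were 0.25 and 0.16 for Cdc20 and 0.32 and 0.15 for Pttg1. Ube2c read 713.7 and 790.4 in G0 CMP and 1089 and 1003 in G4/G5 CMP, a difference of 0.47 ± 0.12 (limma, adjusted p = 0.250). Pttg1 read 1636 and 1624 in G0 CMP and 2363 and 1760 in G4/G5 CMP, a difference of 0.32. Cdc20 read 1434 and 1382 in G4/G5 CMP, close above the 1232 and 1356 of G0 CMP, a difference of 0.12. For Pttg1 the pool with the neutrophil signal was the higher, and for Ube2c both pools read higher by a similar amount.

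Dlgap5 read 77.8 and 75.1 in G0 CMP and 128.6 and 119.7 in G4/G5 CMP. The groups did not overlap, and the difference of 0.63 ± 0.27 was the widest of the 44 in CMP (limma, adjusted p = 0.366). Mki67 read 2150 and 1894 in G0 CMP and 1358 and 1769 in G4/G5 CMP, a difference of -0.38 ± 0.16 (limma, adjusted p = 0.359). Both pools were lower, and the pool with the neutrophil signal was the lower of them. Ncaph, a condensin I subunit, read 589.7 and 505.5 in G0 CMP and 400.3 and 404.7 in G4/G5 CMP with probe set 1436707_x_at, a difference of -0.43 ± 0.13 (limma, adjusted p = 0.295). Its other probe set, 1423920_at, gave 0.02 ± 0.15, so the probe sets of Ncaph disagreed.

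The remaining genes that were followed on every array overlapped or lay close in CMP. Cdk1 read 608.1 and 560.5 in G4/G5 CMP, within the 709.1 and 556.8 of G0 CMP, a difference of -0.10. Plk1, with 181.5 and 194.6, lay within the G0 range, a difference of 0.15. Top2a read 1324 in pool 1, below both G0 pools, and 1810 in pool 2, between them, a difference of -0.26. Bub1b read 311.2 and 362.9, a difference of 0.04, on both sides of the G0 pools. Tpx2 read 204.3 and 239.8, below both G0 pools, a difference of -0.20 (limma, adjusted p = 0.553). Aurkb, Birc5, Cenpa, Ndc80 and Prc1 overlapped between genotypes in CMP, with differences of 0.17, 0.11, 0.10, -0.23 and 0.14. Other probe sets of Aurkb, Bub1b and Prc1 had the opposite sign there, at -0.12, -0.04 and -0.07.

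Averaged over both cell types, 36 of the 44 genes were lower in G4/G5 mice, against 46.1% of all genes, with a median of -0.15, against 0.02 over all genes. The limma test called 0 of the 44, beside 0.0338% of all genes (0.0113% higher and 0.0225% lower), and 9 (20.5%) had an unadjusted p under 0.05, close to the 17.8% of all genes. The lowest values of p belonged to Ncaph (-0.35 ± 0.09), Mki67 (-0.37 ± 0.11), Top2a (-0.33 ± 0.11) and Nuf2, the partner of Ndc80 in its complex (-0.28 ± 0.10), with limma adjusted p of 0.187, 0.206, 0.211 and 0.232. All 5 genes of chromosome structure were lower, with a median of -0.33. Nuf2 read 421.1 and 344 in CMP of G0 mice against 306.8 and 314.7 in CMP of G4/G5 mice, and 420.3 and 403.6 against 359.7 and 318.1 in GMP. Its genotypes overlapped in neither cell type. The same held for 7 genes in all, Anln, Aspm, Mki67, Ncaph, Nuf2, Nusap1 and Tpx2 (15.9%), against 6.4% of all genes. In both cell types 0 genes were above, against 10.3%. With the other probe sets of Ncaph (1423920_at) and Tpx2 (1428105_at) the genotypes overlapped in CMP. For Ncaph, 1423920_at gave a mean effect of -0.14 ± 0.11 (limma over probe sets, adjusted p = 0.526). Without G4/G5 CMP pool 2, which leaves the array with the neutrophil signal as the only G4/G5 CMP array, Mki67 and Top2a were called (limma, adjusted p = 0.0318 and 0.0196), among 668 genes.

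The difference of the genotype effect between GMP and CMP was below 0 for 34 of the 44 genes, against 54.9% of all genes, with a median of -0.15, against -0.03 over all genes. The limma interaction test called 0 of the 44, beside 0% of all genes, with 4 (9.09%) at an unadjusted p under 0.05, against 3.97% of all genes. Without G4/G5 GMP pool 2 the count was 28 and the median -0.06, and without G4/G5 GMP pool 1 they were 41 and -0.24. Without G0 CMP pool 1 the median was -0.23. Of the 44 genes, 25 were lower in both cell types, 16 were higher in CMP and lower in GMP, 3 were higher in both, and 0 were lower in CMP and higher in GMP. Ube2c was higher by 0.47 in CMP and differed by -0.31 in GMP, an interaction of -0.78 ± 0.17 (limma, adjusted p = 0.994, unadjusted p = 0.00149). Aurka followed, with 0.31 in CMP and -0.50 in GMP and an interaction of -0.80 ± 0.26 (limma, adjusted p = 0.994, unadjusted p = 0.0132). For both genes every G4/G5 pool lay above the G0 pools in CMP and below them in GMP. Plk1 and Prc1 had interactions of -0.67 ± 0.28 and -0.53 ± 0.23 (limma, adjusted p = 0.994 for each). Across the 44 genes, the effects in GMP and CMP, which rest on different arrays, had a Pearson r of 0.35 and a Spearman rho of 0.22, against 0.60 and 0.44 across all 8886 genes. Genes are not independent replicates, and whether same-numbered CMP and GMP pools shared mice was not given in the sources used here.

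Other genes of division were counted with the same fit. Of 86 further mitosis genes listed, 81 were tested. In G0 mice 52 of them had a higher mean in GMP than in CMP and 29 a lower one, with a median of 0.09, where that of the set described here was 0.31. With limma 6 were called higher and 2 lower, where 10.6% and 10.2% of all genes were called, so these counts were not above the background. The genes called higher included Mybl2, the B-Myb subunit that activates MuvB target genes (0.93 ± 0.18), Ube2s, the ubiquitin chain-extending enzyme of the anaphase-promoting complex (0.74 ± 0.16), Cdca3 (0.92 ± 0.20) and Cdca5, which encodes sororin, a cohesion factor (0.66 ± 0.15), with limma adjusted p of 0.0130, 0.0165, 0.0166 and 0.0186. Those called lower were Pmf1 and Cenpc1, both kinetochore genes (-1.32 ± 0.36 and -0.58 ± 0.16; limma, adjusted p = 0.0354 and 0.0399). In G4/G5 mice, Anapc1 and Ncapg2 were called higher in GMP (0.60 and 0.79) and Cit lower (-1.07), where 4.18% and 6.29% of all genes were called, and the median was 0.05.

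Of 14 mitotic kinesins, 12 were tested, and in G0 mice 6 had a higher and 6 a lower mean in GMP. Kif20a, a kinesin of cytokinesis, was higher in GMP of G0 mice (0.52 ± 0.16; limma, adjusted p = 0.0464) and Kif2a, a microtubule depolymerase, was lower (-0.70 ± 0.14; limma, adjusted p = 0.0137), with a median of 0.01. That was 1 call of 12 in each direction, where 10.6% and 10.2% of all genes were called higher and lower, so these counts were not above the background. In G4/G5 mice, Kif22, the chromokinesin Kid, was higher in GMP (0.77 ± 0.15; limma, adjusted p = 0.0214) and the median was -0.16. Kif22 was the 1 kinesin called of 12, where 4.18% and 6.29% of all genes were called higher and lower. Of 49 DNA replication genes, 47 were tested. In G0 mice 37 had a higher mean in GMP and 10 a lower one, with a median of 0.23. With limma 5 were called higher, among them Cdc45 (0.94), Tk1 (0.94), Rrm2 (0.95) and Ccne1 (1.37), and 0 lower, a share of calls close to the 10.6% of all genes called higher. In G4/G5 mice 39 had a higher mean and 8 a lower one, with a median of 0.38, where that of the mitosis genes was 0.11. Of them 5 were called higher, among them Cdc45 (0.74), Rrm2 (0.85), Gmnn (0.79) and Cdt1 (0.65), where 4.18% of all genes were called higher.

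Between genotypes, limma called 0 genes of these 3 lists in CMP or in GMP. In GMP, 67 of the 81 further mitosis genes, 11 of the 12 kinesins and 42 of the 47 replication genes were lower in G4/G5, with medians of -0.15, -0.29 and -0.20. In CMP, 50, 8 and 42 were lower, with medians of -0.10, -0.15 and -0.26. The lowest p in CMP belonged to Knl1, the kinetochore scaffold (-0.75 ± 0.18), Kif22 (-0.99 ± 0.15) and Rrm1, a subunit of ribonucleotide reductase (-0.44 ± 0.13), with limma adjusted p of 0.239, 0.124 and 0.289. In GMP it belonged to Ckap2l (-0.77 ± 0.17), Kif11, which pushes the spindle poles apart (-0.51 ± 0.15), and Lig1, the replicative DNA ligase (-0.39 ± 0.11), each with a limma adjusted p of 0.595.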

How the data were processed

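Per the labels' protocols, Trizol-extracted RNA of the sorted progenitors was turned into biotinylated cRNA and hybridised to Affymetrix Mouse Genome 430 2.0 arrays. The deposited values are linear intensities: MAS5 signals per the submitters' processing notes, which the authors scaled to a target of 100 with Microarray Suite 5.0, per the series text. The trimmed mean of every array was 100.001 and its median signal between 14.3 and 18.5. No detection calls were used, and the number of arrays limits the precision.

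Of 45101 probe sets, 64 were controls, 34945 carried 1 symbol, 932 several and 9160 none, and 34741 of those with 1 symbol matched the reference gene table (GRCm38.p6). From the intensities, log2(signal + 10) was computed, which understates changes of dim genes. Genes reaching a signal of 50 on at least 2 arrays were tested through their brightest probe set with limma 3.58.1 in R 4.3.3: 1 mean per group over 8 arrays, 4 residual degrees of freedom, an intensity trend and Benjamini-Hochberg adjustment over 8886 genes at a threshold of 0.05. On simulated data for the GMP genotype comparison (8886 genes), 64% of changes of 1 and 99% of changes of 2 on the log2 scale were recovered, with 10 false calls. The simulation gave each gene the same spread on all arrays. Changes as small as those of the mitosis genes in GMP, from -0.52 to 0.20, were not simulated, so their recovery is not known. Tables and figures used Python 3.11.15, pandas 2.3.3 and matplotlib 3.10.9.

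The series text pairs the pools by number. Deviations of same-numbered pools correlated at 0.25 in CMP and 0.14 in GMP over genes, with 2 pairs each. In total 20 alternative settings were tried. The mitosis genes and the other lists were chosen with earlier results of these data known. Every gene of the set is accounted for by role. A core of 12 genes and, per comparison, the genes past the threshold or the 4 with the lowest p are given by array, as are disagreeing probe sets. From the other lists, up to 4 called genes per direction or those with the lowest p are named.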

Additional observations from a re-analysis of the deposited data

Results flagged for a closer look

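For 3 genes, with their chosen probe sets, every G4/G5 pool lay above the G0 pools in CMP and below them in GMP. Cdc20 kept this order with its chosen probe set alone. Its probe set 1416664_at read 366.1 and 386.1 in G0 CMP against 551.8 and 362.5 in G4/G5 CMP, so the genotypes overlapped there. Its probe set 1439394_x_at overlapped in CMP and also in GMP, where G0 pools read 76.2 and 55.1 and G4/G5 pools 80.5 and 71.9. The effect of genotype, GMP minus CMP on the log2 scale, was -0.80 ± 0.26 for Aurka, -0.78 ± 0.17 for Ube2c and -0.30 ± 0.18 for Cdc20, with 2 pools per group. The limma interaction test gave an unadjusted p of 0.0132, 0.00149 and 0.122 and an adjusted p of 0.994 for each. For Ube2c and for Hmmr, both GMP pools lay above both CMP pools in G0 mice and below them in G4/G5 mice. The order of Hmmr held for its chosen probe set, 1425815_a_at. With 1427541_x_at the G0 pools read 97.1 and 114.5 in CMP and 104.4 and 78.5 in GMP. With 1450156_a_at they read 137.5 and 126.2 in CMP and 132.8 and 121.4 in GMP, so both overlapped. For Hmmr the interaction was -0.41 ± 0.19 (limma, unadjusted p = 0.0651, adjusted p = 0.994). Other probe sets of Hmmr gave interactions of 0.29 and 0.11, opposite in sign, as did 1 probe set of Cdc20, at 0.04. The summed signal of the 14 neutrophil markers differed between the genotypes in GMP and between the G4/G5 CMP pools, and its part in these patterns was not tested.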

How the results depend on the processing

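The 20 alternatives changed the pseudocount, the filter, the choice of probe set, the normalization, the intensity trend, the block, the arrays fitted, or left out an array. Apart from the fits that leave out an array, 334 values of named mitosis genes kept their direction and their side of the threshold. A further 11 lost the call, 2 gained it and 1 turned. Of the 31 named pairs of gene and comparison, 11 were called in the main fit, so most of the 334 were uncalled in both fits. The losses all fell on those called pairs. Calls lost when an array was left out are not in this tally. Without probe sets marked _x_at or _s_at, Ncaph in CMP turned to 0.0205. With only the 4 arrays compared, 1 mitosis gene was called between genotypes in GMP, among 360 of all 8886 genes. Between GMP and CMP in G4/G5 mice, 1 was called with median centring, among 938 genes in all. With the replicate block shared over all arrays 1 was called there, among 1225. The shared block also added Mad2l1 between GMP and CMP in G0 mice (12 calls against 11, and 2093 against 1845 over all genes). It changed no other call of the 44 genes there. With the block within each cell type 0 were called between genotypes, beside 2 of all genes in CMP and 0 in GMP. Leaving out an array gave 0 to 13 calls between GMP and CMP in G0 mice, 0 to 2 in G4/G5 mice, 0 to 2 for the mean genotype effect, and 0 for CMP, GMP and their difference. The median differences then ranged from 0.26 to 0.35 and from 0.01 to 0.22 between cell types in G0 and G4/G5 mice, from -0.10 to -0.01 in CMP, from -0.32 to -0.18 in GMP, from -0.21 to -0.10 for the mean and from -0.24 to -0.06 for the difference. Of 28 further probe sets of 20 genes, 9 ran opposite to the chosen probe set between GMP and CMP in G0 mice and 12 in G4/G5 mice, 9 between genotypes in CMP and 2 in GMP. The causes were not tested. With 2 pools per group, leaving out an array leaves a lone pool, whose spread is then taken from the other groups.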
